A study of Mus musculus with 4 samples.

Results

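Transcripts of 10 immune checkpoint genes were followed across 4 arrays of sorted cells from mouse mammary tumours. The genes were the 6 receptors Pdcd1 (PD-1), Ctla4, Lag3, Havcr2 (TIM-3), Tigit and Icos and the 4 ligands Cd274 (PD-L1), Pdcd1lg2 (PD-L2), Cd80 and Cd86. They were picked by gene name, and every non-control probe with one of these names was taken, giving 17 of the 56605 probes of the array and 10 of the 23520 named features tested. 4T1, a mammary carcinoma line of BALB/c origin, had been implanted in BALB/C mice that received no treatment. Cells taken from the tumours were sorted with the ALDEFLUOR reagent, which becomes fluorescent where aldehyde dehydrogenase (ALDH) is active. The groups were ALDH-high and ALDH-low cells at zeitgeber time ZT0 (lights on, by the usual convention) and ALDH-high and ALDH-low cells at ZT12 (lights off). Each group had 1 one-colour array, and the labels do not say how many mice gave each fraction, so that no single contrast has a replicate check.

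Checkpoint receptors sit mainly on T cells and NK cells and set how strongly these cells answer an antigen. PD-1, CTLA-4, LAG-3, TIM-3 and TIGIT restrain the cell, while ICOS, a relative of CD28, stimulates it. The ligands are carried by antigen-presenting cells and other myeloid cells and, for PD-L1 in particular, also by tumour cells, where interferon-gamma is the best known inducer.

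The sequences upstream of Cd274 and Pdcd1 are shown because these genes stand for the opposite patterns described below. Both are the 250 bases before the gene's start, 5′ to 3′ on the gene's strand, from RefSeq on build GRCm38.p6. The Cd274 stretch is chr19:29367188-29367437 on the plus strand and the Pdcd1 stretch is chr1:94052554-94052803 on the minus strand. Capitals mark each match to GGAAA, the core of the site of NFAT, a calcium-dependent transcription factor of activated T cells, searched on both strands.
Cd274 upstream: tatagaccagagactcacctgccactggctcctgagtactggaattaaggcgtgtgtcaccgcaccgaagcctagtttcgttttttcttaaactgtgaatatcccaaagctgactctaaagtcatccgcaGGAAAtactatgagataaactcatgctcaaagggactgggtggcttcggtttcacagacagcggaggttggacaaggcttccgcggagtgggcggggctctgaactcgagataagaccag
Pdcd1 upstream: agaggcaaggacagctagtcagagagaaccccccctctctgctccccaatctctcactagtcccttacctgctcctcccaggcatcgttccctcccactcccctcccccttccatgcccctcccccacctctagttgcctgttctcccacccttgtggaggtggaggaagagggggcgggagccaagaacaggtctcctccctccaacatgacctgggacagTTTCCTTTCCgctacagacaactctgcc
The Cd274 stretch held 1 match, its first base 120 bases before the start. The Pdcd1 stretch held 2, adjoining each other, with first bases 28 and 23 bases before the start. Such a short motif is common, being present in 55.6% of 32851 promoter stretches of this length. Of the 10 genes, 7 had a promoter entry. None of these held the gamma-activated site TTCNNNGAA (in 7.02% of all stretches) or the interferon-stimulated response element core (in 2.98%), on either strand. The AP-1 motif TGANTCA, in 6.75% of all stretches, occurred once each in Cd80 and Havcr2. These matches are letters in a window and say nothing about binding.

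Several facts about the arrays bear on every value below. The share of spots well above background was 55.8% to 60.6%, no spot was saturated (0 on each array), and the median SD of replicate spots lay between 0.0374 and 0.0456 log2 units over 300 probes. The ZT0 arrays shared one slide and the ZT12 arrays another, so that time and slide cannot be told apart. On each slide the arms took opposite positions: the ZT12 ALDH-high and ZT0 ALDH-low arrays lay at position 1_1, and the ZT0 ALDH-high and ZT12 ALDH-low arrays at position 1_2. Arrays at the same position were far more alike than arrays of the same arm or time. At least 2-fold higher signals on the ZT12 ALDH-high than on the ZT0 ALDH-low array were found for 2.93% of features and at least 2-fold lower signals for 1.65%. At position 1_2 the shares were 12.1% higher and 5.76% lower on the ZT0 ALDH-high than on the ZT12 ALDH-low array. Between the arms at ZT0 they were 19.4% higher and 31.2% lower, and at ZT12 31.0% higher and 16.1% lower. The interaction of ALDH arm with time and the array position are one and the same split of these 4 arrays and cannot be told apart. An exchange of the ALDH labels at one time would give this split too, and cannot be told apart from them. ALDH-high and ALDH-low below are the arms as labelled. Aldh1a1, a gene of the sorted activity, was lower on the array labelled ALDH-high at ZT0 (log2 difference -1.65) and higher on the one labelled ALDH-high at ZT12 (1.38). Levels are given as log2 of the signal over its own array's 75th percentile, so that 0 is the level of a probe at that percentile. On this scale the median of all features differed between ALDH-high and ALDH-low by -0.34 at ZT0 and by 0.30 at ZT12. With the median in place of the 75th percentile these shifts were 0.16 and -0.54.

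The samples are labelled 4T1 cells, but leukocyte transcripts were plentiful. All 4 pan-leukocyte markers, all 11 macrophage and monocyte markers and all 8 neutrophil markers were well above background on every array, as were 11 of 12 T cell markers. The epithelial tumour cell markers were also present, 7 of 8 on every array. In bulk RNA of this kind, fewer cells of a type and less RNA per cell cannot be told apart.

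Between the arms the checkpoint genes formed opposite patterns. Receptors other than Havcr2 were lower in ALDH-high than in ALDH-low cells at ZT0 and higher at ZT12, whereas Cd274 and Cd80 did the reverse. At ZT0, 2 members were at least 2-fold higher (Cd274 and Cd80), where 19.4% of all features were. Another 4 were at least 2-fold lower (Pdcd1, Ctla4, Icos and Lag3), where 31.2% of all features were. At ZT12, 5 members were at least 2-fold higher (Pdcd1, Ctla4, Icos, Lag3 and Tigit) against 31.0% of features, and 1 was at least 2-fold lower (Cd274) against 16.1%. Lower at ZT0 and higher at ZT12, both by at least 2-fold, were 4 members and 20.0% of all features, and the reverse held for 1 member and 14.0% of features. The 6 receptors had a median difference of -1.78 at ZT0 and 2.23 at ZT12, and the 4 ligands had medians of 1.04 and -0.46. In the receptor medians Ctla4 and Tigit enter as bounds, so that these are not medians of measured differences alone. Only 8 of the 10 members were well above background on all 4 arrays: Ctla4 and Tigit passed the filter through the arrays on which they were high.

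**Figure D1:**
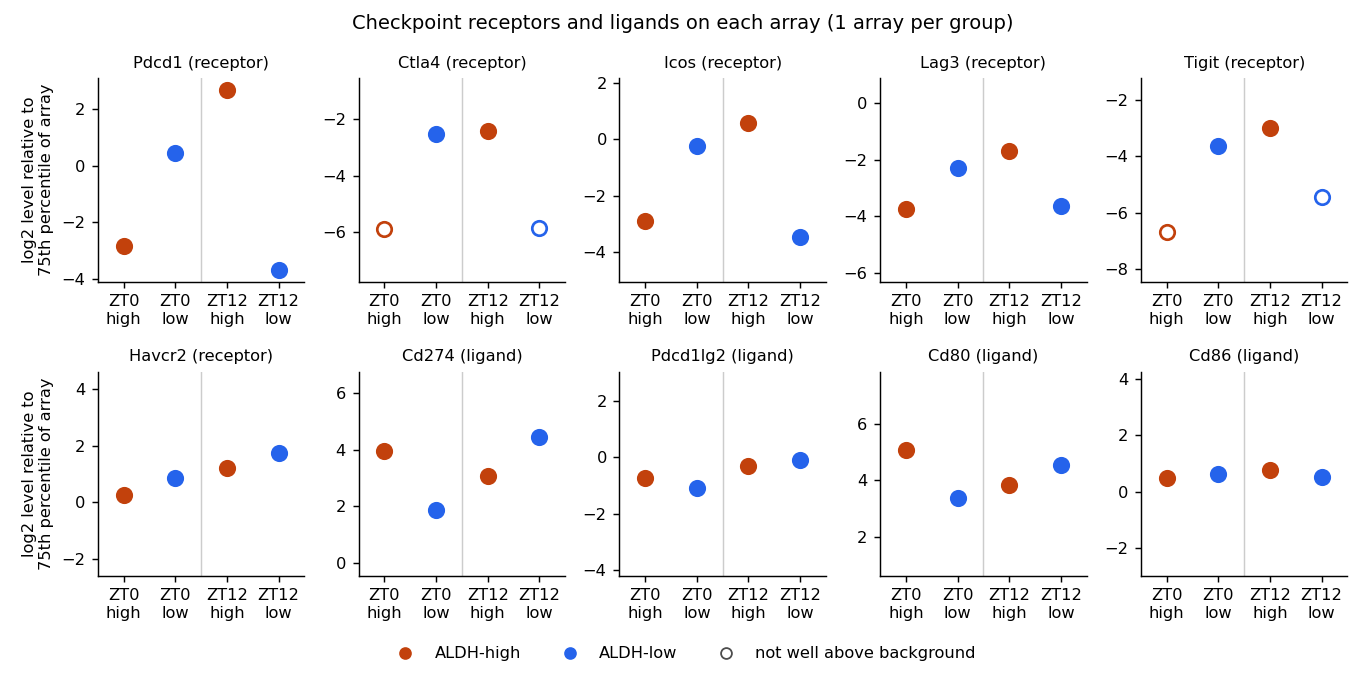
Level of each of the 10 checkpoint genes on each array, as log2 processed signal relative to the array's 75th percentile, with 1 point per array and open points where the probe was not well above background. Pdcd1, Ctla4, Icos, Lag3 and Tigit are high on the ZT0 ALDH-low and ZT12 ALDH-high arrays, while Cd274 and Cd80 are lowest on the same pair.

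Pdcd1, which encodes the inhibitory receptor PD-1, had the widest spread of the receptors. Its probe (A_51_P285736, mm9 chr1:95935064-95935123, minus strand) gave a log2 level of -2.84 in ALDH-high and 0.45 in ALDH-low cells at ZT0, and 2.69 in ALDH-high and -3.70 in ALDH-low cells at ZT12. It was thus 9.75-fold lower in ALDH-high cells at ZT0 and 83.6-fold higher at ZT12. The arrays at position 1_1 were high and those at position 1_2 low. Within position 1_1 the level was 2.24 log2 units higher on the ZT12 ALDH-high than on the ZT0 ALDH-low array, and within position 1_2 it was 0.86 higher on the ZT0 ALDH-high than on the ZT12 ALDH-low array.

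Icos, the costimulatory receptor, ran the same way with a smaller spread. Its level was -2.91 in ALDH-high and -0.22 in ALDH-low cells at ZT0, and 0.57 in ALDH-high and -3.45 in ALDH-low cells at ZT12 (A_52_P682768, mm9 chr1:61057071-61057130, plus strand). ALDH-high cells had 6.43-fold less at ZT0 and 16.2-fold more at ZT12. Ctla4, the high-affinity competitor of CD28 for Cd80 and Cd86, lies near Icos on the same chromosome (A_55_P2147712, mm9 chr1:60971801-60971860, plus strand). Its level was -2.51 in ZT0 ALDH-low and -2.42 in ZT12 ALDH-high cells, and it was not well above background on the ZT0 ALDH-high (measured at -5.88) and ZT12 ALDH-low (-5.85) arrays. The differences are therefore bounds: at least 4.21-fold lower in ALDH-high cells at ZT0 and at least 5.69-fold higher at ZT12.

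Lag3, an inhibitory receptor that binds MHC class II, had levels of -3.75 in ALDH-high and -2.27 in ALDH-low cells at ZT0, and of -1.68 in ALDH-high and -3.63 in ALDH-low cells at ZT12. This is 2.8-fold lower in ALDH-high cells at ZT0 and 3.86-fold higher at ZT12 by probe A_51_P264825. A second Lag3 probe, A_66_P119717, was not well above background on any array. Tigit, which competes with CD226 for the poliovirus receptor, was measured at -3.63 in ZT0 ALDH-low and -2.99 in ZT12 ALDH-high cells. It was not well above background on the ZT0 ALDH-high (-6.70) and ZT12 ALDH-low (-5.43) arrays, so that it was at least 1.94-fold lower in ALDH-high cells at ZT0 and at least 3.81-fold higher at ZT12. All 5 of these receptors thus had their 2 higher levels on the position 1_1 arrays.

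Havcr2, which encodes TIM-3 and is found on myeloid cells as well as on exhausted T cells, did not follow them. Its level was 0.25 in ALDH-high and 0.86 in ALDH-low cells at ZT0, and 1.21 in ALDH-high and 1.75 in ALDH-low cells at ZT12. ALDH-high cells had the lower value at both times, by 1.53-fold and 1.45-fold, and both ZT12 arrays lay above both ZT0 arrays.

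Cd274, the gene of PD-L1, showed the reverse of the PD-1 pattern (A_51_P248666, mm9 chr19:29462363-29462422, plus strand). Its level was 3.96 in ALDH-high and 1.86 in ALDH-low cells at ZT0, and 3.09 in ALDH-high and 4.44 in ALDH-low cells at ZT12. ALDH-high cells had 4.29-fold more at ZT0 and 2.54-fold less at ZT12. Within position 1_1 it was 1.23 log2 units higher on the ZT12 ALDH-high than on the ZT0 ALDH-low array, and within position 1_2 it was 0.48 lower on the ZT0 ALDH-high than on the ZT12 ALDH-low array. The neighbouring gene Pdcd1lg2, which encodes the second PD-1 ligand, varied much less: -0.74 in ALDH-high and -1.09 in ALDH-low cells at ZT0, and -0.31 in ALDH-high and -0.09 in ALDH-low cells at ZT12. Its arms differed by 1.27-fold at ZT0 and 1.17-fold at ZT12, in the same directions as Cd274.

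Cd80 and Cd86 share the receptors CD28 and CTLA-4, and each was read by 4 probes, which allows a check within the gene. Among these probes, the 3 shown here are spaced along the genes. They are written 5′ to 3′ on the strand of the gene, in lower case throughout since no base is singled out.
Cd80 probe A_66_P130432 (mm9 chr16:38479343-38479402, plus strand): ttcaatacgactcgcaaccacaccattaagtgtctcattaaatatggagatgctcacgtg
Cd80 probe A_52_P244005 (mm9 chr16:38474174-38474233, plus strand): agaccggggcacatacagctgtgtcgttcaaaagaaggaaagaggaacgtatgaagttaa
Cd86 probe A_51_P174723 (mm9 chr16:36615381-36615440, minus strand): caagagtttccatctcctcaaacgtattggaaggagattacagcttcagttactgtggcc
The brightest Cd80 probe, A_55_P2001218, had a level of 5.09 in ALDH-high and 3.37 in ALDH-low cells at ZT0, and of 3.85 in ALDH-high and 4.55 in ALDH-low cells at ZT12. By it, Cd80 was 3.3-fold higher in ALDH-high cells at ZT0 and 1.62-fold lower at ZT12. The other 3 probes had the same signs, with log2 differences of 1.15 (A_66_P130432), 0.84 (A_52_P244005) and 1.66 (A_51_P418295) at ZT0. At ZT12 the same probes gave -1.36, -1.21 and -1.36, so that all 3 passed 2-fold there while the brightest probe did not. Cd86 barely moved by its brightest probe, A_55_P1971951, with 0.50 in ALDH-high and 0.62 in ALDH-low cells at ZT0, and 0.76 in ALDH-high and 0.53 in ALDH-low cells at ZT12. Its 4 probes had one sign at each time on this scale, and their differences lay between -0.43 and -0.12 at ZT0 and between 0.23 and 0.71 at ZT12. Median scaling shifts every probe of an array by the same amount, and under it the sign of all 4 turned at both times.

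**Figure D2:**
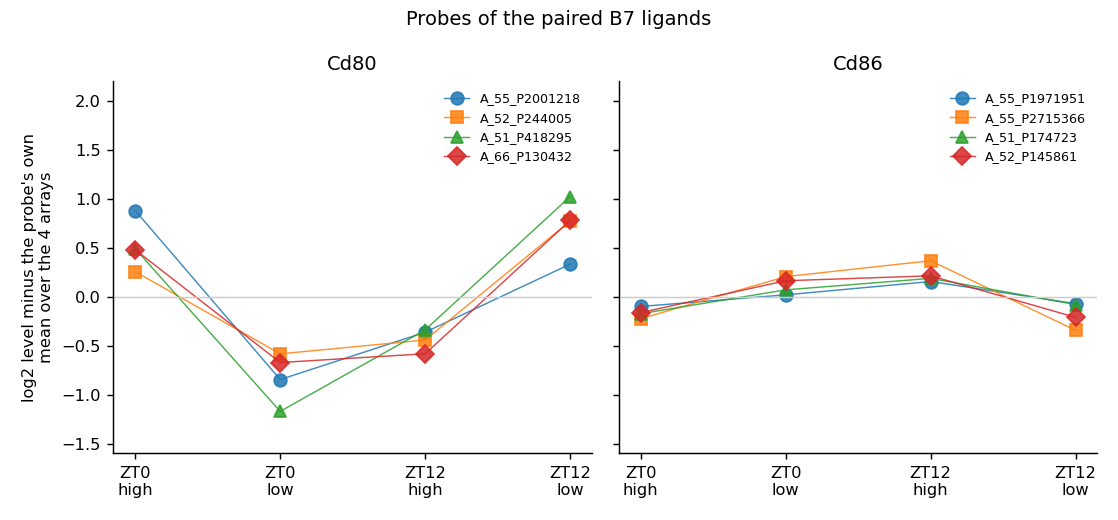
Level of each of the 4 Cd80 probes and 4 Cd86 probes on the 4 arrays. Values are log2 processed signal relative to the array's 75th percentile, minus the probe's own mean over the 4 arrays. Lines join the values of 1 probe. Every Cd80 probe is higher in ALDH-high cells at ZT0 and lower at ZT12, and the Cd86 probes have small differences of the opposite signs on this scale.

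**Figure D3:**
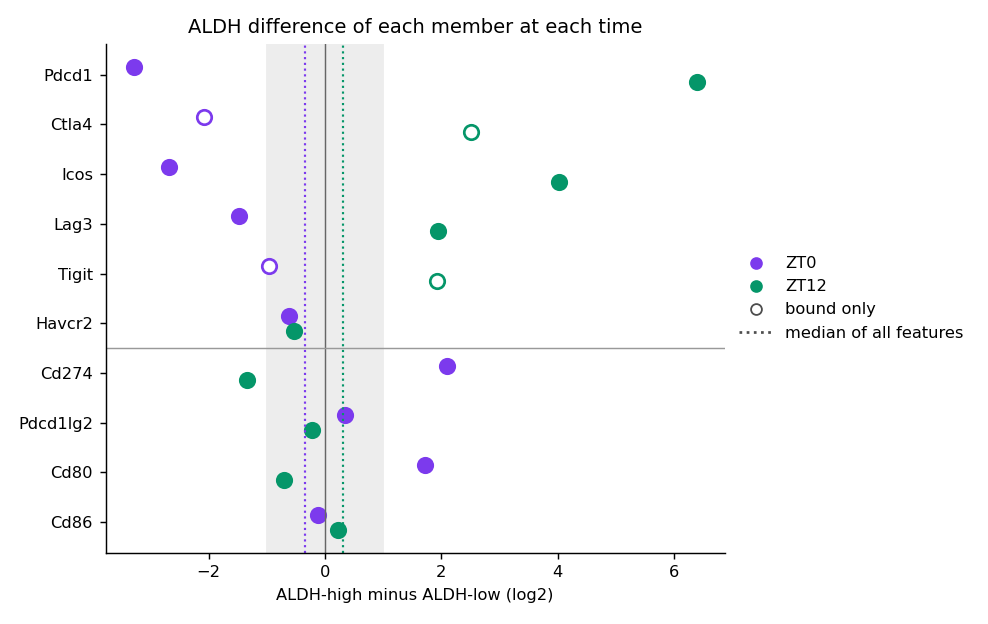
Log2 difference of ALDH-high minus ALDH-low cells for each checkpoint gene at ZT0 and ZT12. The grey band spans 2-fold, open circles are bounds and dotted lines are the medians of all features at each time (-0.34 at ZT0 and 0.30 at ZT12). Pdcd1 has -3.28 at ZT0 and 6.39 at ZT12, and Cd274 has 2.10 at ZT0 and -1.35 at ZT12.

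Between the times, within each arm, the same 4 values give the other pair of contrasts. In ALDH-high cells, 5 members were at least 2-fold higher at ZT12 than at ZT0 (31.8% of all features) and 1, Cd80, was at least 2-fold lower (18.9%). The 5 were Pdcd1 (46.1-fold), Icos (11.1-fold), Lag3 (4.22-fold), Ctla4 (at least 4.5-fold) and Tigit (at least 3.02-fold). In ALDH-low cells, 3 members were at least 2-fold higher at ZT12 (16.3% of features), namely Cd274 (5.99-fold), Cd80 (2.26-fold) and Pdcd1lg2, which lay just inside the threshold at 2.01-fold. Another 5 were at least 2-fold lower in ALDH-low cells at ZT12 (32.5% of features). These were Pdcd1 (17.7-fold), Icos (9.39-fold), Ctla4 (at least 5.33-fold), Lag3 (2.56-fold) and Tigit (at least 2.45-fold). Havcr2, at 1.95-fold higher in ALDH-high and 1.85-fold higher in ALDH-low cells at ZT12, lay just outside it. The contrasts between arms and between times share arrays and are not independent of each other.

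The fit across all features that the design allows, limma with ALDH arm and time as additive terms, called 0 of 23520 features for ALDH (0.0%), 7 of them at an unadjusted p under 0.05. It called 0 for time (0.0%), with 2 at an unadjusted p under 0.05. No member was called for either term, since the smallest adjusted p of any feature was 0.999997 for ALDH and 0.999981 for time. The standard error was 1.54 log2 units for every feature, since 1 residual degree of freedom was left and the features shared one variance. That residual is the ALDH by time contrast, the same split as array position, on which the arrays differed most. The fit thus cannot show that ALDH or time had no effect. The fitted ALDH differences of the members lay between -0.58 (Havcr2) and 1.55 (Pdcd1). A further fit was added after the opposite signs at the 2 times had been seen, with ALDH arm and array position as terms and time left out, so that the difference between times served as its error. Its position term is the mean of the ZT12 ALDH-high and ZT0 ALDH-low arrays minus the mean of the other two, 4.83 log2 units for Pdcd1 (SE 0.43) and -1.72 for Cd274 (SE 0.50). It called 10753 of 23520 features (45.7%) and 6 of the 10 members. For Ctla4 and Tigit, 2 of the 6, the call rests on values not well above background and on a filter they passed through the split itself, so that no p is given for them. The adjusted p was 0.0152 for Pdcd1 and Icos, 0.0222 for Lag3 and 0.0307 for Cd80. Cd274 had an adjusted p of 0.0517, and Pdcd1lg2, Cd86 and Havcr2 had 0.612, 0.621 and 0.958. Over the 19320 features well above background on all 4 arrays the same fit called 56.2%, and 5 of the 8 members among them. This fit was chosen with the result in view, and it reads array position and ALDH by time as one term.

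Partners of the receptors and ligands were taken from lists of related genes. Of 8 further genes of the B7, CD28 and BTLA families, 6 were tested. In ALDH-high cells at ZT0, 2 of them passed 2-fold upwards and 2 downwards, and at ZT12 1 passed it each way. Cd28, the activating receptor for Cd80 and Cd86, followed the checkpoint receptors, at 3.15-fold lower in ALDH-high cells at ZT0 and 5.88-fold higher at ZT12. Icosl, the ligand of ICOS, had the signs of Cd274 and Cd80, at 4.85-fold higher at ZT0 and 1.57-fold lower at ZT12. Cd276 (B7-H3) was 5.73-fold lower in ALDH-high cells at ZT0 and 1.45-fold higher at ZT12, a sign that turned under median scaling.

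Of the TIGIT and nectin axis, 5 of 6 genes were tested, with 3 at least 2-fold lower in ALDH-high cells at ZT0 and 3 at least 2-fold higher at ZT12. Cd226, the activating counterpart of TIGIT, was 2.07-fold lower at ZT0 and 6.12-fold higher at ZT12. Pvr, the ligand that both bind, was 2.76-fold lower in ALDH-high cells at ZT0 and 1.49-fold lower at ZT12, and Nectin2 (on the array as Pvrl2) differed by 1.05-fold and 1.82-fold. Among 6 genes of the TIM-3 and LAG-3 ligands, 2 passed 2-fold upwards and 1 downwards in ALDH-high cells at ZT0, and 1 upwards and 2 downwards at ZT12. Lgals9 (galectin-9) was 3.19-fold higher in ALDH-high cells at ZT0 and 1.67-fold lower at ZT12. Ceacam1, reported as a TIM-3 ligand, was 6.04-fold higher at ZT0 and 2.95-fold lower at ZT12, and Fgl1, reported as a LAG-3 ligand, was 1.99-fold higher at ZT0 and 3.34-fold lower at ZT12.

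Further lists were counted in the same way. Cd27 of the costimulation genes and Tox of the exhaustion genes passed the filter through the arrays on which they were high, like Ctla4 and Tigit. Both enter the counts as bounds. Of 10 TNF superfamily costimulation genes, 6 were tested, and 5 of these were at least 2-fold lower in ALDH-high cells at ZT0 and 5 at least 2-fold higher at ZT12. Tnfrsf18 (GITR) was 2.55-fold lower at ZT0 and 8.53-fold higher at ZT12, and Tnfsf9 (4-1BB ligand) was 2.38-fold lower at ZT0 with a difference of 0.04 at ZT12. Of 11 exhaustion and regulatory T cell genes, 10 were tested, with 7 at least 2-fold lower at ZT0 and 7 at least 2-fold higher at ZT12. Foxp3, the regulatory T cell factor, was 2.95-fold lower at ZT0 and at least 9.13-fold higher at ZT12, and Il2ra (CD25) was 2.75-fold lower and 6.55-fold higher. Batf, a transcription factor of activated T cells and dendritic cells, was 1 of 2 genes of the list above 2-fold in the other direction at ZT0, at 3.69-fold higher in ALDH-high cells at ZT0 and 1.68-fold lower at ZT12.

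The interferon-gamma axis and PD-L1 regulators had the signs of Cd274 and Cd80, apart from Ifng itself and Cmtm4. Of 10 genes, 8 were at least 2-fold higher in ALDH-high cells at ZT0 and 7 at least 2-fold lower at ZT12. Ifng was 4.47-fold lower in ALDH-high cells at ZT0 and at least 39.4-fold higher at ZT12, and Cmtm4, a relative of the PD-L1 stabiliser Cmtm6, was 7.48-fold lower and 2.23-fold higher. Of 8 innate checkpoint genes, 7 were tested, with 5 at least 2-fold higher at ZT0 and 5 at least 2-fold lower at ZT12. Within that list Cd200 was 2.81-fold lower at ZT0, and its difference of 0.08 at ZT12 had the opposite sign under 4 of the other settings. For Pirb, 2 of its 3 probes had the sign opposite to that of the brightest probe at ZT0 and at ZT12, so that no direction is given. Of the 7 signalling effectors, 3 were higher and 3 lower by at least 2-fold at each time. Among them Sh2d1a passed the filter through the arrays on which it was high, and enters as a bound. Zap70, the kinase of the T cell receptor, was 8.09-fold lower in ALDH-high cells at ZT0 and 53.8-fold higher at ZT12, and Ptpn6 (SHP-1), a phosphatase of inhibitory receptors in many leukocytes, was 4.31-fold higher and 2.29-fold lower. Over all lists of related genes, 57 of 66 genes were tested, and their median ALDH difference came to -0.02 at ZT0 and 0.08 at ZT12, where all features had -0.34 and 0.30.

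Markers of other cell types moved with the checkpoint genes. Of the 12 T cell markers, 7 were at least 2-fold lower in ALDH-high cells at ZT0 and 10 at least 2-fold higher at ZT12, with median differences of -1.73 and 3.16. Their summed signal, in units of the 75th percentile, was 27.9 in ALDH-high and 32.9 in ALDH-low cells at ZT0, and 51.2 in ALDH-high and 14.1 in ALDH-low cells at ZT12. Cd8a, the cytotoxic T cell coreceptor, was 3.71-fold lower at ZT0 and 18.97-fold higher at ZT12. Cd3d, a chain of the T cell receptor complex, was 3.73-fold higher in ALDH-high cells at ZT0 and 2.04-fold higher at ZT12. Cd4 and Cd247, singled out after their values were seen, were likewise higher at ZT0, by 2.15-fold and 1.4-fold. On the ZT0 ALDH-high array Cd3d (log2 level 3.71), Cd247 (2.80) and Cd4 (1.57) were the brightest T cell markers and weigh most in the summed signal. All 6 NK cell markers were at least 2-fold lower at ZT0 and at least 2-fold higher at ZT12, with a summed signal of 1.32 in ALDH-high and 9.47 in ALDH-low cells at ZT0, and 13.8 in ALDH-high and 0.843 in ALDH-low cells at ZT12. Only 3 of the 6 were well above background on all 4 arrays. Ncr1, Klrb1c and Klre1 passed the filter through the arrays on which they were high. They enter as bounds, so that their direction was fixed in advance. Of the 6 B cell markers, 5 were at least 2-fold lower at ZT0 and 5 at least 2-fold higher at ZT12, with a summed signal of 5.12 in ALDH-high and 19.2 in ALDH-low cells at ZT0, and 29.6 in ALDH-high and 1.52 in ALDH-low cells at ZT12. Of the 4 red cell markers, 3 were tested, and these were lower in ALDH-high cells at ZT0 and higher at ZT12, with median differences of -7.85 and 6.16. Cd79a among the B cell markers and Alas2 among the red cell markers likewise passed the filter through the arrays on which they were high, and enter as bounds.

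The pan-leukocyte and neutrophil markers had medians of the signs of Cd274 and Cd80. All 4 pan-leukocyte markers were at least 2-fold higher in ALDH-high cells at ZT0, and 1 was at least 2-fold lower at ZT12, with median differences of 1.98 and -0.79. Their summed signal was 736 in ALDH-high and 173 in ALDH-low cells at ZT0, and 248 in ALDH-high and 481 in ALDH-low cells at ZT12. Of the 8 neutrophil markers, 5 were at least 2-fold higher at ZT0, with a median of 3.23. At ZT12, 4 were at least 2-fold lower and 2 at least 2-fold higher, with a median of -1.85. Their summed signal was higher in ALDH-high cells at both times, at 2936 in ALDH-high and 2226 in ALDH-low cells at ZT0, and 3059 in ALDH-high and 1870 in ALDH-low cells at ZT12. The macrophage and monocyte markers had medians of -1.24 and 0.62, whereas their summed signal was higher in ALDH-high cells at both times. It was 318 in ALDH-high and 225 in ALDH-low cells at ZT0, and 263 in ALDH-high and 197 in ALDH-low cells at ZT12. The dendritic cell markers had medians of -0.28 and 0.65, with a summed signal of 201 in ALDH-high and 397 in ALDH-low cells at ZT0, and 532 in ALDH-high and 169 in ALDH-low cells at ZT12. Most of this sum on every array was the signal of 1 gene, Siglech. Its log2 level was 7.50 in ALDH-high and 8.57 in ALDH-low cells at ZT0, and 8.99 in ALDH-high and 7.22 in ALDH-low cells at ZT12. The 8 epithelial markers were all at least 2-fold lower in ALDH-high cells at ZT0, with a summed signal of 11.5 in ALDH-high and 194 in ALDH-low cells. At ZT12 it was 92.8 in ALDH-high and 85.2 in ALDH-low cells. What part the makeup of the sorted cells has in the checkpoint differences was not tested.

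**Figure D4:**
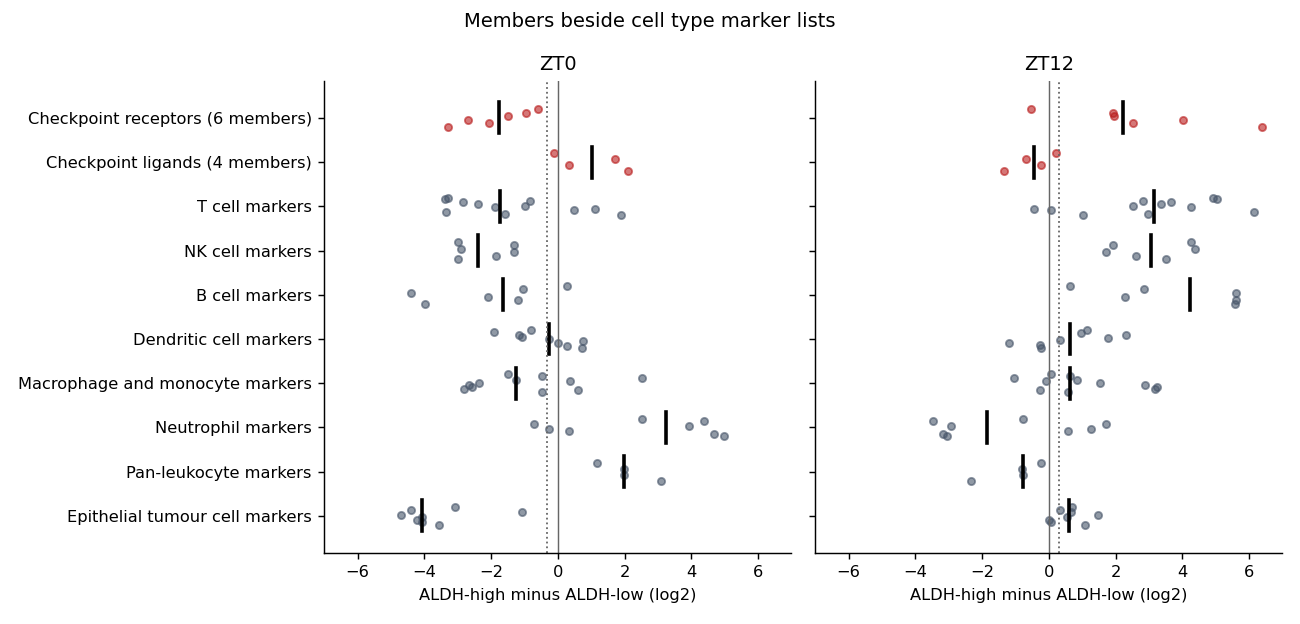
Log2 difference of ALDH-high minus ALDH-low cells for each gene of the checkpoint receptors, checkpoint ligands and marker lists at ZT0 and ZT12, with the median of each list marked. Marker genes not well above background on an array of the contrast are entered as bounds. The receptor medians are -1.78 and 2.23, with Ctla4 and Tigit entered as bounds, and the T cell marker medians are -1.73 and 3.16. The ligand medians of 1.04 and -0.46 have the signs of the pan-leukocyte medians of 1.98 and -0.79.

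The levels over the 4 arrays, each centred on its own mean, were compared as a description with the median profile of each marker list, by the root mean square difference in log2 units. Cd80 came closest to the pan-leukocyte profile (0.10), as did Cd274 (0.50). Cd86, Pdcd1lg2 and Havcr2 came closest to the dendritic cell profile (0.21, 0.50 and 0.55), Lag3 to the T cell profile (0.42), and Icos (0.16) and Pdcd1 (0.86) to the NK cell profile, which rests on 3 markers. The ALDH difference of Pdcd1 was 1.55 log2 units below the median of the T cell markers at ZT0 and 3.22 above it at ZT12. At ZT0 single T cell markers came close to Pdcd1 or passed it, as Lck did with -3.40 (chosen after its values were seen). At ZT12 no T cell marker well above background on both arrays had a value above that of Pdcd1 (6.39). Lck had 5.03 there. Cd3g, known only as a bound of at least 6.16, may lie above or below Pdcd1.

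Among 12633 genes well above background on all 4 arrays, those with the most similar profiles by the same measure were Lypd6b (0.16) and Srp54b (0.23) for Pdcd1 and Thop1 (0.09) and Ms4a4b (0.13) for Icos. For Lag3 they were Foxd2 (0.07) and Il12rb1 (0.07), and for Havcr2 Vcan (0.11) and Appl2 (0.11). Cd274 was closest to Tmem189 and Zc3h12d (both 0.14), Pdcd1lg2 to Tmem211 (0.06) and Osgin2 (0.08), Cd80 to Selp and Ropn1l (both 0.05), and Cd86 to Ino80e (0.02) and Arl6ip4 (0.02). Lypd6b, Thop1, Ino80e and Vcan have probes of opposite sign, and 4 arrays leave little room to tell profiles apart.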

How the data were processed

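Per the labels' protocols, total RNA of the 4 samples was amplified and labelled with Cy3 for one-colour arrays. The deposited scanner files hold the processed signal, an intensity on a linear scale that Agilent Feature Extraction 10.7.1.1 made, per the file headers, with positions on build mm9; version 9.5.1.1 is named in the submitters' processing notes. Other deposited columns used are the flag for signal well above background and the spot mean and background intensity. The authors' series table holds intensity values that are quantile normalized (all columns have a median of 28.3) and served as an alternative.

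Control spots were left out, spots of a probe were averaged, and log2 of the processed signal minus the array's 75th percentile was used. Probes well above background on at least 2 of 4 arrays were kept, and the probe with the highest mean level stood for a gene. Where 1 side was not well above background, a bound was computed from the lowest signal well above background on that array, or the probe's own signal if higher. All 23520 features were fitted with limma 3.58.1 (R 4.3.3; eBayes, two-sided, adjusted p by Benjamini-Hochberg, threshold 0.05), a step tested on simulated data. Its p-values measure the spread between these 4 arrays alone. Alternatives were median scaling, quantile normalization, normexp (offset 50) with quantile normalization, the series table, the mean of probes, other filters and other covariates.

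The members and the 8 lists of related genes and 9 marker lists were chosen with earlier results of these data known. Of 135 list genes, 134 were on the array, 4 of them under an older name. Beside the members and their partners, the rule names the 2 genes of each list with the largest mean ALDH difference, and the 2 nearest profiles of each member. Some marker genes it chose are given by count. One gene that the rule names is not reported here. Promoters come from RefSeq. Exon positions were not analysed here. Python 3.11.15, pandas 2.3.3, numpy 2.4.6 and matplotlib 3.10.9 were used.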

Additional observations from a re-analysis of the deposited data

Results flagged for a closer look

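For 7 of the checkpoint genes, all well above background on the 4 arrays, the difference of ALDH-high minus ALDH-low cells had opposite signs at ZT12 and ZT0, with 1 array in each group. The share of all features with opposite signs is not given here, so the count of 7 is not a result about these genes. By at least 2-fold at both times, 20.0% of all features were lower at ZT0 and higher at ZT12, and 14.0% were the reverse. The ZT12 difference minus the ZT0 difference was 9.67 log2 units for Pdcd1, 6.71 for Icos and 3.43 for Lag3. It was -3.45 for Cd274, -2.42 for Cd80, -0.57 for Pdcd1lg2 and 0.34 for Cd86. Under median scaling Cd86 differed between the arms by 0.36 at ZT0 and -0.65 at ZT12, so that the sign of its change turns. On the main scale the median of all features was -0.34 at ZT0 and 0.30 at ZT12. In the fit with arm and array position that was added after seeing the data, Pdcd1, Icos, Lag3 and Cd80 were called and Cd274, Pdcd1lg2 and Cd86 were not. That fit called 45.7% of all features, and the same split of arrays is the position on the slide.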

How the results depend on the processing

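No paired analysis was possible because each group has 1 replicate number; the fit with arm and time already compares the arms within a time, and so within a slide. Of 40 member differences, 35 kept their sign under every alternative, among them all 26 past 2-fold. The other 5, for Pdcd1lg2 and Cd86, changed sign under median scaling. For Ctla4 and Tigit the differences between arms and times are bounds, and a bound could not change sign under any alternative. For members with 1 tested probe, the mean of probes and the other filters gave the main value by construction. The count of 35 is therefore in part fixed in advance. Of 80 counts under alternatives, 57 were within 1.5 times the main count. Members at least 2-fold lower in ALDH-high cells at ZT0 numbered 2 in place of 4 under normexp with quantile normalization. At ZT12, those higher numbered 2 under normexp and 3 of 5 where all 4 arrays had to be well above background. Those lower numbered 4 under median scaling, 2 with the mean of probes and 0 under quantile normalization, normexp and the series table, in place of 1. In ALDH-low cells, those higher at ZT12 numbered 1 in place of 3 under normexp. Those lower numbered 2 under normexp and 3 under median scaling, quantile normalization, the series table and the filter on all 4 arrays, in place of 5. In ALDH-high cells, those higher at ZT12 numbered 2 under normexp and 3 with that filter, in place of 5. Those lower numbered 2 under median scaling and 0 under quantile normalization, normexp, the series table and the mean of probes, in place of 1. The shares of all features past 2-fold under these alternatives are not given here, so these counts are not a result about the members. The filter leaves out Ctla4 and Tigit by construction. Median scaling shifts every difference of a contrast by the same amount. At ZT12 it took the arm differences of Cd80 to -1.57, Havcr2 to -1.41 and Pdcd1lg2 to -1.10, past 2-fold beside Cd274. With the mean of probes the Cd80 difference at ZT12 was -1.16. The cause of the other moves was not tested. With the mean of probes Pirb turned to 1.94 at ZT0 (-0.61 by its brightest probe) and to -0.92 at ZT12 (1.49). At ZT12 Cd200 went down to -0.79, Tnfsf9 to -0.83 and Cd276 to -0.34, each under median scaling. The planned limma fits called 0 members for ALDH and for time under every alternative. With array position in place of time, 1 member and 1915 features had an unadjusted p under 0.05. The added ALDH by time fit called 3 members under quantile normalization and the series table, in place of 6. Of the 23520 features it called 10365 under quantile normalization and 10445 with the series table, in place of 10753. Lag3, Ctla4 and Tigit lie close to background, which limits their values.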
